A study of Mus musculus with 144 samples.

Results

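The 29 single-cell transcriptomes described here are the active and quiescent neural stem cells of 7-month-old mice. They were chosen by their labels: library titles starting A1_, an age of 7-month and a stage of aNSC (active, 10 cells) or qNSC (quiescent, 19 cells). They are part of 144 libraries, of which 117 are single cells with a stage label. Flow cytometry was used to isolate subventricular zone cells with the nuclear receptor Tlx (gene Nr2e1), and the RNA of each cell was turned into full-length cDNA with a SMARTer kit and sequenced. The cells fell into 3 title sets, with 2 aNSC and 6 qNSC cells in A1_1, 4 and 6 in A1_2, and 4 and 7 in A1_3. The labels name no strain, sex, animal or allele and no agent, and do not say whether a title set is a separate mouse. P-values therefore measure only the spread between title sets. Nor do the labels say how a cell was given its stage. If stages were assigned from these same transcriptomes, the tests would not be independent of the labels. Younger cells entered one comparison only: 32 aNSC and 17 qNSC cells of 5 weeks, and 16 and 23 of 7 weeks.

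The subventricular zone lines the lateral ventricles and is a niche of adult neurogenesis. Its quiescent stem cells are astrocyte-like glia that rarely divide. On activation they enter the cell cycle, increase protein synthesis and give rise to transit-amplifying progenitors and then to neuroblasts, which migrate to the olfactory bulb.

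Values were TPM, transcript abundances scaled per length and per library, so read depth was unknown. Between 1621 and 3450 genes reached 1 TPM in aNSC cells (median 2932.5) and between 1016 and 4161 in qNSC cells (median 3015). Mitochondrially encoded genes took 4.36% to 14.9% of the TPM in aNSC and 1.62% to 23.9% in qNSC cells. The mean of that share was 15.9% in the 7 qNSC cells of A1_3, against 6.46% in A1_1 and 5.61% in A1_2.

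Several cells stood apart from their label. List levels below are means of log2(TPM + 1) over the genes of a list. A pair of aNSC cells of A1_3, A1_3_S7 and A1_3_S13, held oligodendrocyte genes at a mean of 8.52 and 8.34, whereas the other 8 aNSC cells lay between 0.0416 and 1.37. Mbp, a major protein of myelin, was at 3973 TPM in A1_3_S7 and 6813 TPM in A1_3_S13. Another aNSC cell, A1_3_S9, kept astroglial genes at 6.71, against 1.98 to 4.11 in the other 9 aNSC cells. Among qNSC cells, 3 had low astroglial means: 1.19 in A1_1_S23, 2.70 in A1_2_S4 and 3.03 in A1_3_S16, while the other 16 lay between 7.21 and 9.89. A1_1_S23 also had a G2/M list mean of 6.96, and the other 18 qNSC cells were at or below 1.67. The same 3 cells had the highest Stmn1 of the qNSC group, 3883 TPM or more, while the remaining 16 were at or below 945.7 TPM. These 3 cells were kept, since they would have been picked on the genes under test. The genes past the threshold are given with and without the Mbp-rich pair. Counts of separated genes are not printed for every list. A printed count is also given without the pair where the pair moved it by 1.5 times or more.

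**Figure D1:**
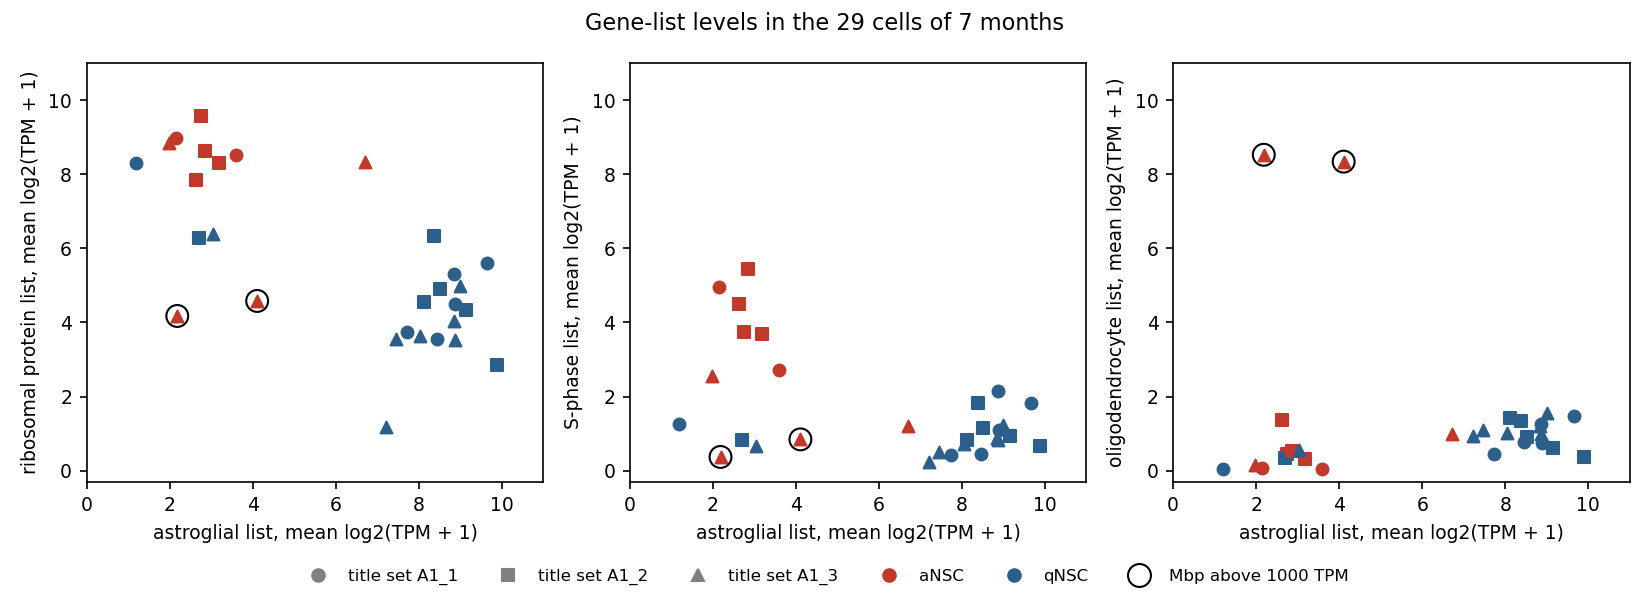
Each point is 1 cell of 7 months, with the astroglial list mean on the x axis and the ribosomal protein, S-phase or oligodendrocyte list mean on the y axis, all as mean log2(TPM + 1). Red points are aNSC and blue points qNSC, symbols give the title set, and black circles mark the 2 cells with Mbp above 1000 TPM, which are at 8.34 and 8.52 on the oligodendrocyte axis.

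Active cells of 7 months had less Malat1 and less of 4 further transcripts, Clu, Aldoc, Sparcl1 and Sat1, and more Stmn1 and Hmgn2. These 7 genes were the ones past an adjusted p of 0.05 among the 4584 tested, 2 higher in aNSC (0.0436% of genes) and 5 lower (0.109%). Without adjustment, 711 genes (15.5%) had p under 0.05, 474 higher (10.3%) and 237 lower (5.17%). Differences are aNSC minus qNSC on the log2(TPM + 1) scale, tested with limma on title-set means with the title set as block. Over all tested genes the differences had a median of 0.39. Within single title sets the median was -0.04 in A1_1, 0.31 in A1_2 and 0.02 in A1_3. The sign was the same in 3 of 3 sets for 37.7% of genes. Without the Mbp-rich pair, Malat1 alone passed among 4680 genes, which is 0 higher (0%) and 1 lower (0.0214%), and 784 genes had an unadjusted p under 0.05.

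The calls moved widely with the processing. Leaving out 1 cell at a time gave from 0 calls (without A1_1_S21, A1_1_S25 or A1_3_S3) to 63 (without A1_3_S16). Quantile normalization gave 10 higher and 83 lower, so the share of calls that were higher went from 28.6% to 10.8%.

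Malat1, a nuclear long non-coding RNA, was at 3013 to 49465 TPM in aNSC (median 17445) and at 37128 to 183595 TPM in qNSC (median 90131). Every aNSC cell except the Mbp-rich A1_3_S7 lay below the lowest qNSC cell. Its difference was -2.73 (SE 0.28, adjusted p = 0.0144), lower in 3 of 3 title sets. Without the Mbp-rich pair it was -3.10 (adjusted p = 0.0454).

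Clu encodes clusterin, a secreted chaperone and lipoprotein component of astrocytes. It was at 1.66 to 1666 TPM in aNSC (median 5.96) and 2.42 to 20836 TPM in qNSC (median 5784). The 3 qNSC cells with low astroglial means were within the range of most aNSC cells, and aNSC A1_3_S9 lay within the qNSC range. The difference was -7.58 (SE 1.07, adjusted p = 0.0470).

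Aldoc, the brain form of the glycolytic enzyme aldolase and an astrocyte marker, was at 0.66 to 1720 TPM in aNSC (median 4.64) and 2.70 to 17889 TPM in qNSC (median 5258). The aNSC cell at 1720 TPM was A1_3_S9, and 4 qNSC cells were at or below 46.2 TPM. The difference was -7.71 (SE 1.14, adjusted p = 0.0470). Sparcl1, a secreted matrix protein of astrocytes, was at 0.67 to 1708 TPM in aNSC (median 5.96) and 1.52 to 7585 TPM in qNSC (median 4124). Its difference was -7.27 (SE 1.09, adjusted p = 0.0470). The same aNSC cell again held the highest level, and the same 3 qNSC cells the lowest of their group.

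Sat1 encodes the rate-limiting enzyme of polyamine breakdown. It was at 1.55 to 1464 TPM in aNSC (median 248.6) and 35.3 to 46264 TPM in qNSC (median 5207), with some overlap of the groups. The difference was -5.33 (SE 0.80, adjusted p = 0.0470). Without the Mbp-rich pair the differences of Clu, Aldoc, Sparcl1 and Sat1 were -7.16, -7.32, -6.88 and -5.66, each with an adjusted p of 0.0995, past the threshold no longer.

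Stmn1 encodes stathmin, a microtubule-destabilizing protein of dividing and migrating neural cells. It was at 2043 to 24170 TPM in aNSC (median 7461) and 2.25 to 10774 TPM in qNSC (median 101.5). All aNSC cells were above all qNSC cells except A1_1_S23, A1_2_S4 and A1_3_S16. The difference was 5.54 (SE 0.72, adjusted p = 0.0358), and 5.87 without the Mbp-rich pair (adjusted p = 0.0899). Hmgn2, a nucleosome-binding protein that loosens chromatin, was at 611 to 30409 TPM in aNSC (median 18026) and 1.49 to 8232 TPM in qNSC (median 357). Its lowest aNSC values were those of the Mbp-rich pair. The difference was 4.90 (SE 0.64, adjusted p = 0.0358), and 5.63 without the pair (adjusted p = 0.0887).

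**Figure D2:**
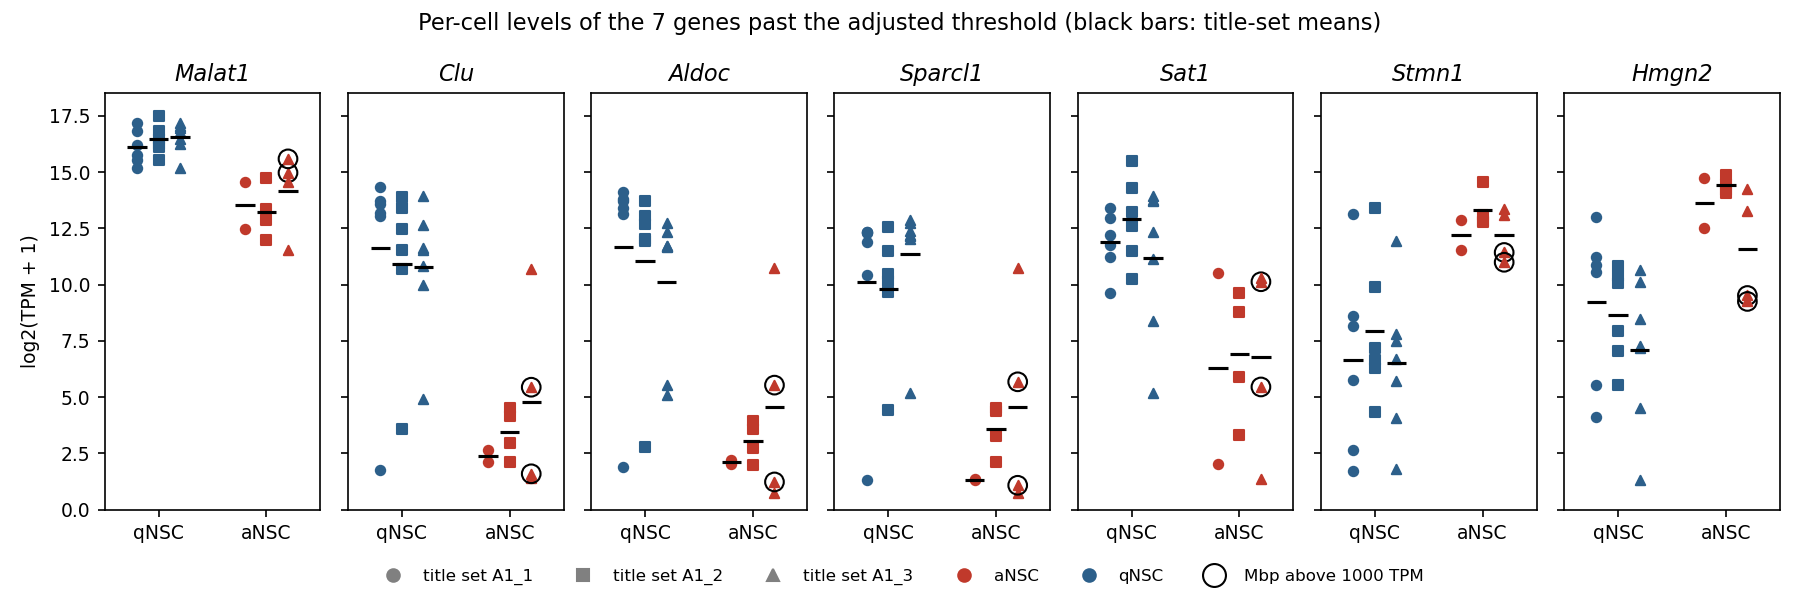
Points are single cells, the y axis is log2(TPM + 1), black bars are the means of the 3 title sets of each stage, and black circles mark the 2 cells with Mbp above 1000 TPM. Malat1, Clu, Aldoc, Sparcl1 and Sat1 have lower set means in aNSC (red) and Stmn1 and Hmgn2 higher ones, while for every gene at least 1 cell lies within the range of the other stage.

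Among genes whose 3 aNSC set means all lay above the 3 qNSC set means, those next by unadjusted p did not pass the threshold. Ribosomal protein genes, predicted gene models and rows with no symbol were left out of this ranking. Several ribosomal protein genes, among them Rps27a and Rps3a1, had an adjusted p of 0.0861. Ptma, an abundant nuclear protein of proliferating cells, differed by 4.31 (adjusted p = 0.0598). H2afz, a histone variant, differed by 4.84 and Tmsb4x, an actin-binding peptide, by 3.96 (adjusted p = 0.0861 for both). Snrpe, a core protein of the spliceosome, differed by 5.62 and Tpt1, a translation-related protein, by 5.65, with the same adjusted p. Ssb, an RNA-binding protein, differed by 6.07 (adjusted p = 0.0904), and the chaperone gene Hsp90ab1 by 4.36 (adjusted p = 0.0958).

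The astroglial list had negative differences in every tested member. All 38 tested members of 40 had negative differences, with a median of -4.83, and 3 of them (Clu, Aldoc and Sparcl1) passed. Over all 40 with no filter on low values the median was -4.59, and Hopx was at 0.02. For 33 of the 38, the 3 aNSC set means all lay below the 3 qNSC set means, which 8.01% of all tested genes did. Without the Mbp-rich pair, 33 members were apart in this way, against 7.07% of tested genes, with a median of -4.46. The gap junction gene Gja1 was at 0.23 to 1420 TPM in aNSC (median 18.04) and 2.47 to 7139 TPM in qNSC (median 3614), a difference of -5.88 (adjusted p = 0.0598). Slc1a3, a glutamate transporter, differed by -5.17 and Apoe, the main lipid carrier of astrocytes, by -5.19 (adjusted p = 0.0861 for both). Aqp4, the astrocytic water channel, reached 1 TPM in 1 of 10 aNSC and 12 of 19 qNSC cells.

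Classical stem cell markers were often absent at this level. Gfap was at 1 TPM or more in 0 of 10 aNSC and 1 of 19 qNSC cells, S100b in 0 and 5, Sox2 in 0 and 3, Hes1 in 0 and 5, and Nes and Prom1 in none of either. Vim was detected in 2 aNSC and 5 qNSC cells. Sox9, a glial transcription factor, was detected in 7 and 17 cells and differed by -2.75 (adjusted p = 0.294). Vcam1, an adhesion molecule of quiescent stem cells, was detected in 3 and 13 cells. Cells were not used as replicates, so these shares carry no test.

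Nr2e1 itself, the gene behind the sort, was at 0 to 322 TPM in aNSC (median 4.04) and 0 to 1673 TPM in qNSC (median 6.90). It was at 1 TPM or more in 9 of 10 aNSC and 15 of 19 qNSC cells. The difference was 0.68 (SE 1.42, adjusted p = 0.841), and its sign changed with the scaling, to -0.26 under quantile normalization. A row named gfp was detected in 6 of 10 and 12 of 19 cells and differed by 0.05 (adjusted p = 0.988), or -0.08 under quantile normalization.

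S-phase genes, which copy DNA, had positive differences for all 30 tested members of 41, with a median of 2.60. None passed the threshold. Of all tested genes, 59.5% had positive differences. Members had passed a filter on low values, and levels in qNSC were low, so a member could pass through its aNSC values. Over all 41 with no filter the median was 2.05, with E2f1 (-0.075), Pole (-0.105) and Rfc5 (-0.074) negative and Ccne1 at 0. In 8 of the 30 the set means were apart and higher in aNSC, against 11.5% of all tested genes. Without the Mbp-rich pair this held for 13 of 29, against 14.9%. Pcna, the sliding clamp of DNA polymerase, was at 0.58 to 2716 TPM in aNSC (median 1095) and 0.20 to 807 TPM in qNSC (median 3.20). Its difference was 5.77 (adjusted p = 0.0904). The helicase subunit Mcm7 had a median of 542 TPM in aNSC and 5.87 TPM in qNSC and differed by 4.17 (adjusted p = 0.216). Rfc3, a subunit of the clamp loader, reached 3046 TPM in an aNSC cell and at most 1.74 TPM in qNSC, and differed by 4.72 (adjusted p = 0.226).

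The G2/M list, of genes that act at mitosis, was thinly measured. Of 45 members, 11 passed the filter on low values, with a median of 1.34, 7 positive and 4 negative. Over all 45 with no filter the median was -0.23, so the sign of the list median depended on the filter. None of the 11 had set means apart, and without the Mbp-rich pair 2 of 14 were apart and higher, against 14.9% of all tested genes. Top2a, the topoisomerase that untangles chromosomes, was at 0 to 989 TPM in aNSC and 0 to 1799 TPM in qNSC. It reached 1 TPM in 4 of 10 and 9 of 19 cells. Those 4 aNSC cells were at 21.5 TPM or more. Among qNSC cells only A1_1_S23, at 1799 TPM, was above 6.45 TPM. Mki67, the proliferation marker Ki-67, was at 1 TPM or more in no aNSC cell, which allows a share of up to 30.8% of such cells by the exact binomial 95% interval, and in 1 qNSC cell. That limit covers counting error only and takes the cells as independent, which cells of 1 title set may not be. That cell was A1_1_S23, at 160 TPM. Cdk1, the mitotic kinase, was detected in 1 of 10 and 3 of 19 cells.

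The promoters of both groups are shown for 2 genes each, as examples of genes of DNA copying and of mitosis. Only windows that hold the marked motif were shown. Each is 250 bases before to 50 after a transcription start from RefSeq, build GRCm38.p6, 5′ to 3′ on the gene's strand. Capitals mark E2F motifs (TTTGGCGC, TTTCCCGC, TTTGCCGC or TTTCGCGC) in Mcm7 (chr5:138171834-138172133, minus strand) and Rfc3 (chr5:151651159-151651458, minus strand), and the CHR motif (TTTGAA) in Top2a (chr11:99024140-99024439, minus strand) and Cdk1 (chr10:69352863-69353162, minus strand). Both strands were searched, in windows of 32 of 41 S-phase and 40 of 45 G2/M genes; windows of 1 gene can overlap.
Mcm7: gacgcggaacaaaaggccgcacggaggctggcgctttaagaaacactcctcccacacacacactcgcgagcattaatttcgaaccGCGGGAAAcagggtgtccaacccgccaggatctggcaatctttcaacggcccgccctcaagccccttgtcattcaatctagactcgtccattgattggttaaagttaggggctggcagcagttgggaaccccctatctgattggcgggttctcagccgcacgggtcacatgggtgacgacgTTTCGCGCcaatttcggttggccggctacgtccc
Rfc3: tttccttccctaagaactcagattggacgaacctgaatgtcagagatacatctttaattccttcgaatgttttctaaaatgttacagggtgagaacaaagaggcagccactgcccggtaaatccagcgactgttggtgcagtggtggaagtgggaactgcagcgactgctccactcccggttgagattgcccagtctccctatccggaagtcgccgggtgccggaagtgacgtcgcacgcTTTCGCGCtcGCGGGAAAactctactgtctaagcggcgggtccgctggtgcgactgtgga
Top2a: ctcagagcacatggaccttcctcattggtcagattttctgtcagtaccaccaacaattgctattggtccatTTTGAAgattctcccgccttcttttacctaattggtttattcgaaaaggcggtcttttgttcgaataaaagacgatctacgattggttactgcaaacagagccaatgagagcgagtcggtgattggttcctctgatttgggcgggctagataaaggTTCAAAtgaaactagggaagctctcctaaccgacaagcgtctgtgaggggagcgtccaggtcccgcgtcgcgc
Cdk1: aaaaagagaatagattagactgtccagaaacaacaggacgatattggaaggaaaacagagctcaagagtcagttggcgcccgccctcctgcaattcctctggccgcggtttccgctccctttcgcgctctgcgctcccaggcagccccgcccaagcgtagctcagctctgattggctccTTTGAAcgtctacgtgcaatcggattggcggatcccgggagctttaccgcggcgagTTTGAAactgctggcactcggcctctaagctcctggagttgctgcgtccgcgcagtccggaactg
An E2F motif was in 13 of 40 windows of S-phase genes, in 1 of 42 of G2/M genes and in 2.26% of all 32851 windows. That G2/M window is the one shown for Cdk1, where the motif TTTCGCGC is left in small letters. The CHR motif was in 5 of 40 windows of S-phase genes, in 32 of 42 of G2/M genes and in 17.9% of all windows. In all, 8 motifs were searched. CCAAT was in 22 of 40 and 32 of 42 windows, against 37.4% of all. For TATAAA, the shorter NFI motif TTGGCA, the STAT motif TTCNNNGAA, the SOX motif ACAATG and the NFI palindrome, the counts were 3, 2, 3, 2 and 0 of 40 S-phase windows and 3, 5, 1, 3 and 0 of 42 G2/M windows. Over all windows, in the same order, the shares were 13.6%, 14.1%, 8.30%, 12.6% and 0.0365%. A match describes the sequence and not a bound site.

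Genes of the protein-making machinery had mostly positive differences, with none past the threshold. Of 78 tested ribosomal protein genes, 77 had positive differences, with a median of 3.42, and 52 had set means apart and higher in aNSC. Of all tested genes, 59.5% had positive differences and 11.5% were apart and higher. Without the Mbp-rich pair 65 were apart, against 14.9% of tested genes. Rps6, of the small subunit, was at 126 to 502 TPM in aNSC (median 226) and 0 to 903 TPM in qNSC (median 2.06), a difference of 5.36 (adjusted p = 0.0958). Rpl35a differed by 5.14 (adjusted p = 0.0861) and Rpl8 by 5.30 (adjusted p = 0.124). The ribosomal list mean was 4.17 and 4.58 in the Mbp-rich cells and 7.84 or more in the other 8 aNSC cells.

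Splicing factors had positive differences for 32 of 35 tested, with a median of 2.002, and 14 of them were apart and higher, again against 59.5% and 11.5% of all tested genes. Translation factors had a median of 1.72 over 33, with 8 apart and higher, against the same 11.5%. Among these, Eef1b2, an elongation factor subunit, differed by 6.11 (adjusted p = 0.124). Ribosome biogenesis genes had a median of 1.62 over 17, with 5 apart and higher (11.5% of all), among them the nucleolar proteins Nop56 (3.73) and Ncl (3.56). Proteasome genes had a median of 1.34 over 37, with 6 apart and higher, a share not far from the 11.5% of all genes, led by Psma4 at 5.14 (adjusted p = 0.124). With the pair left out 10 were apart, against 14.9%, and the median was 1.99. Oxidative phosphorylation genes had a median of 1.04 over 76, with 16 apart and higher and 1 apart and lower, against 11.5% and 8.01% of all tested genes. Without the pair 24 were apart and higher, against 14.9%.

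**Figure D3:**
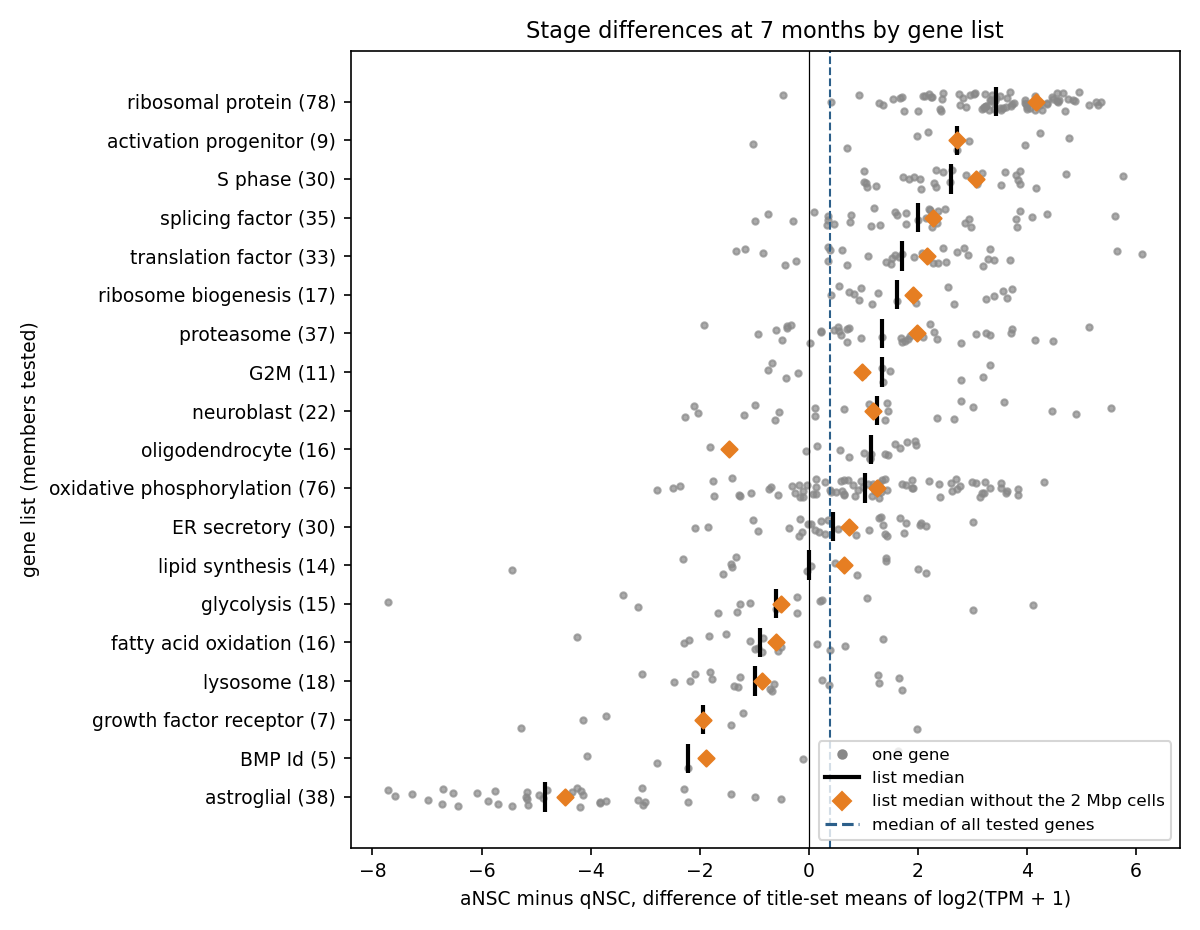
Each grey point is 1 tested gene, placed by its aNSC minus qNSC difference of title-set means of log2(TPM + 1), for every list with at least 5 tested members. Black bars are list medians, from -4.83 (astroglial) to 3.42 (ribosomal protein), orange diamonds are medians without the 2 Mbp-rich cells, and the dashed line is the median of all tested genes, 0.39.

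Other metabolic lists had medians between -0.98 and 0.45. Glycolysis had a median of -0.60 over 15 tested, with 1 called (Aldoc, lower), 2 apart and higher and 4 apart and lower. Of all tested genes, 0.109% were called lower, 11.5% were apart and higher and 8.01% apart and lower. Fatty acid oxidation had a median of -0.89 over 16, with 5 apart and lower and 1 apart and higher, against the same shares. With the pair left out, 1 of 14 was apart and lower, against 7.07% of tested genes. Etfb, an electron carrier of that pathway, had a median of 0.89 TPM in aNSC and 212 TPM in qNSC and differed by -4.25 (adjusted p = 0.183). Lipid synthesis had a median of 0.00 over 14, and its sign changed with the scaling (-0.17 under quantile normalization). Within it Elovl5, a fatty acid elongase, had a median of 0.53 TPM in aNSC and 356 TPM in qNSC and differed by -5.45 (adjusted p = 0.0861). Lysosome genes had a median of -0.98 over 18, with Psap at -3.06 (adjusted p = 0.226), and secretory pathway genes 0.45 over 30.

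Progenitor and neuronal genes were mixed. The activation and progenitor list had 9 tested members of 17, with a median of 2.71 and 4 apart and higher, against 11.5% of all tested genes. Ccnd2, a G1 cyclin, was at 0.24 to 3723 TPM in aNSC (median 725) and 0.29 to 465 TPM in qNSC (median 10.4), a difference of 4.77 (adjusted p = 0.158). Its partner kinases Cdk4 and Cdk6 differed by 3.96 and 4.24 (adjusted p = 0.182 and 0.195). Egfr, a receptor of activated stem cells, was detected in 2 of 10 aNSC cells, at up to 447 TPM, and in 0 of 19 qNSC cells.

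The neuroblast list had 22 tested members, 2 called higher (Stmn1 and Hmgn2), 5 apart and higher and 2 apart and lower, with a median of 1.25. The shares over all tested genes were 0.0436% called higher, 11.5% apart and higher and 8.01% apart and lower. With the pair left out, none of 23 was apart and lower, and without title set A1_3 the median of the list was -0.33. The differences of the 22 ran from -2.27 to 5.54, with 15 positive and 7 negative. Tubb3, a neuronal tubulin of this list, differed by 2.79 (adjusted p = 0.320). Dlx1, a homeobox gene of interneuron precursors in the activation and progenitor list, differed by 2.94 (adjusted p = 0.235). Dcx, a marker of migrating neuroblasts, was detected in 5 of 10 aNSC and 11 of 19 qNSC cells. It differed by 0.11 (adjusted p = 0.972), and by -0.02 under quantile normalization.

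Several receptor and signalling genes had negative differences without passing the test. Notch2, a receptor of the Notch pathway, was at 0 to 12.4 TPM in aNSC (median 0.235) and 0.13 to 171 TPM in qNSC (median 42.3), a difference of -3.87 (adjusted p = 0.163). The other tested Notch genes had positive differences: Jag1, a ligand, of 1.73 (adjusted p = 0.477) and Numb, an inhibitor of Notch signalling, of 2.38 (adjusted p = 0.414), with a list median of 1.73. The BMP and Id list had a median of -2.22 over 5 tested, with 3 apart and lower, against 8.01% of all tested genes. With the pair left out 1 was apart and lower, against 7.07%. Id2, an inhibitor of basic helix-loop-helix factors, differed by -4.07 (adjusted p = 0.165). The growth factor receptor list had a median of -1.93 over 7, with 4 apart and lower, against 8.01% of all tested genes. Among them Ntrk2, the receptor of BDNF, had a median of 0.60 TPM in aNSC and 340 TPM in qNSC and differed by -5.28 (adjusted p = 0.113). Lgr4, a receptor of R-spondins, differed by -4.13 (adjusted p = 0.179).

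The Mbp-rich pair held mature oligodendrocyte genes. Among genes under 10 TPM on average in the other 27 cells, the highest in the pair was Trf, the iron carrier transferrin, at 13752 TPM in A1_3_S7 and 6059 TPM in A1_3_S13. Apod, a lipocalin, was at 12838 and 2926 TPM. Mog, a myelin surface protein, was at 747 and 2644 TPM, and Opalin, a myelin membrane protein, at 1272 and 1885 TPM. Sgk1, Serpinb1a, Cnp, Cldn11, Ermn and Slc50a1 completed the 10. The S-phase mean was 0.371 and 0.845 in the pair, against 1.21 or more in the other aNSC cells. Over all 29 cells, the oligodendrocyte list had a median of 1.14 over 16 tested genes, and without the pair -1.47 over 7.

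Markers of most other cell types were scarce. Of 12 matched oligodendrocyte precursor genes 9 were under 1 TPM in every aNSC cell and all 12 in every qNSC cell, including Pdgfra and Cspg4. Of 15 microglial genes 12 and 14 were so, including Cx3cr1 and Aif1, and of 16 endothelial and mural genes 15 and 14, including Cldn5 and Pecam1. Of 19 ependymal genes 17 and 15 were so, including Foxj1. Of 21 mature neuron genes 14 were so in each stage. Of 5 matched erythroid genes 2 were so in aNSC and 3 in qNSC, and the others reached 1 TPM in some cell. No gene passed in the 10 lists of Notch, immediate early, interferon, microglia, endothelial and mural, ependymal, choroid plexus, mature neuron, erythroid and oligodendrocyte precursor genes. They held 0 to 4 tested members each.

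The stage difference at 7 months was then compared with that at 5 and at 7 weeks, on 4206 genes in 9 title sets. Among the cells compared, age followed the title series (A1, A2 and A3), so age and series cannot be told apart. The labels also give an age of 5 weeks to 7 A1_ libraries marked as filtered out, which were not used here, so the A1_ titles do not carry 1 age throughout. No gene differed at an adjusted p under 0.05 in either contrast by limma (0% in each direction). Without adjustment, 281 genes (6.68%) differed from 5 weeks and 359 (8.54%) from 7 weeks. The genes with the smallest p included Etnppl, an astrocytic enzyme, whose stage difference was -4.43 at 7 months, -0.25 at 5 weeks and -0.05 at 7 weeks (adjusted p = 0.547 and 0.387). The genes past the threshold at 7 months had like signs at the younger ages. Malat1 differed by -2.19 at 5 weeks and -3.29 at 7 weeks, and Stmn1 by 3.62 and 8.40.

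In the G2/M list the median stage difference was lower at 7 months than at the younger ages, with no gene past the threshold. Few of its genes were measurable at 7 months: 11 of 45 reached the filter on low values on cells of 7 months, 40 on those of 5 weeks and 29 on those of 7 weeks. Genes that enter through the younger cells tend to differ there, so the list is described over all 45 members with no filter and no test. Their median stage difference was -0.23 at 7 months, 2.27 at 5 weeks and 1.69 at 7 weeks, and it was lower at 7 months than at 5 weeks for 42 genes and than at 7 weeks for 44. Of the 4206 genes tested, 54.2% and 65.0% had such a sign. Those genes had passed a filter on low values, and 31 of the 45 members were among them. The shares are therefore not a like-for-like background for the unfiltered list. Over the 11 genes that reached the filter at 7 months, the medians were 1.34, 2.73 and 3.11. The 41 S-phase genes had medians of 2.05, 1.76 and 2.24, with 15 lower than at 5 weeks and 24 lower than at 7 weeks. Without the cell A1_1_S23, the G2/M median at 7 months was 0.0050 over all 45 genes and 1.80 over the 11, and without the Mbp-rich pair it was -0.07 and 1.40. The per-cell G2/M mean in aNSC had a median of 0.932 and a maximum of 2.09 in the 10 cells of 7 months. Without the Mbp-rich pair the median was 1.22. It had a median of 3.70 and a maximum of 8.21 in the 32 cells of 5 weeks, and 2.11 and 7.92 in the 16 cells of 7 weeks. A maximum tends to rise with the number of cells.

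**Figure D4:**
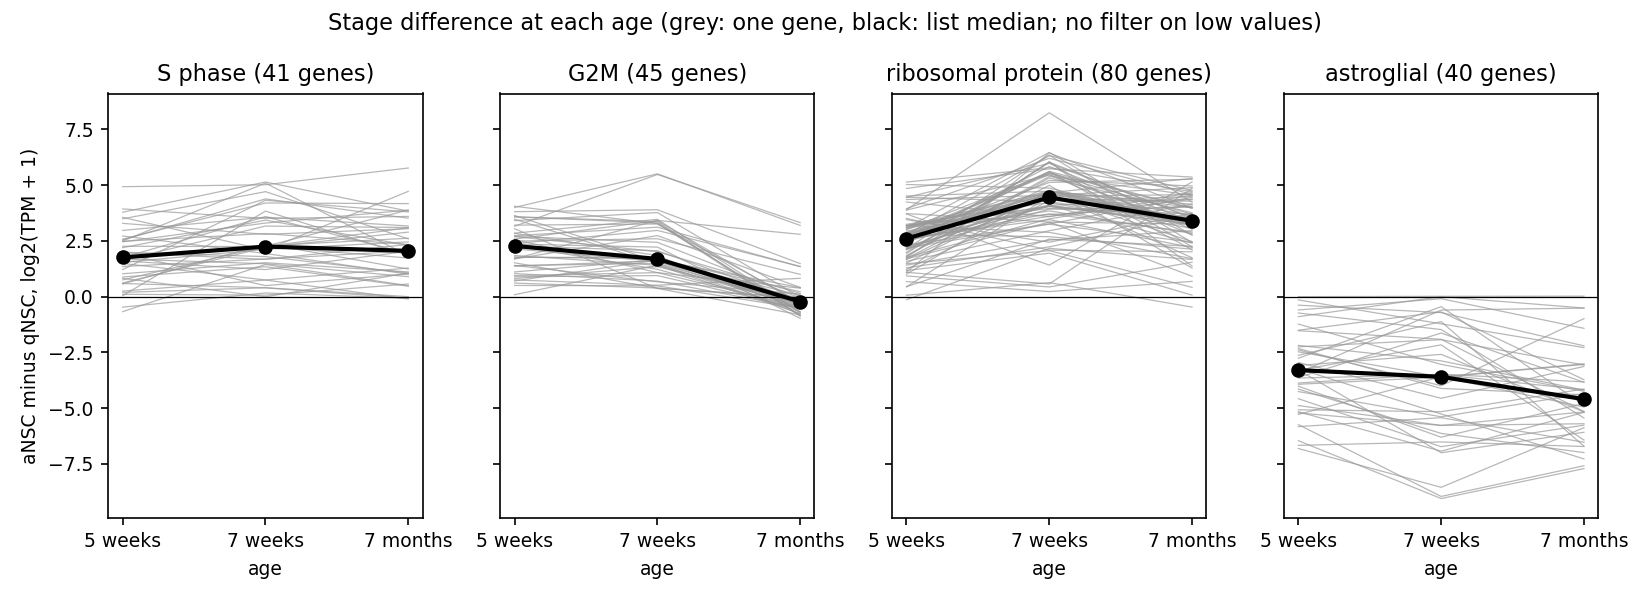
Grey lines are single genes and black lines list medians of the aNSC minus qNSC difference in log2(TPM + 1) at 5 weeks, 7 weeks and 7 months, for every member of each list with no filter on low values. The G2/M median is 2.27 and 1.69 at the younger ages and -0.23 at 7 months, where 11 of the 45 genes reached the filter, while the S-phase median is 1.76, 2.24 and 2.05.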

How the data were processed

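Values were used in the unit the authors deposited, TPM, in 37621 rows and 144 columns. Per the submitters' processing notes, RSEM 1.2.15 and the build mm9 were used. The annotation, aligner and depth are not given in the sources used here. Symbols were found for 32897 of the gene IDs.

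The members, gene lists and panel were chosen with earlier results of these data known. The stage comparison used limma 3.58.1 (R 4.3.3; the package data.table, version 1.17.8) on title-set means of log2(TPM + 1), 3 aNSC and 3 qNSC values with the title set as block. Genes needed a mean of at least 1. P-values were two-sided and adjusted by Benjamini-Hochberg over all tested genes. The age comparison used interaction terms over 18 title-set means. There, a pair of 5-week cells correlated at 0.992 was averaged. The description of lists across ages without a filter was added after seeing the data. Shares used 1 TPM and exact (Clopper-Pearson) 95% intervals, which cover counting error only.

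Named genes were up to 10 per direction at 7 months, filled by smallest p where fewer than 5 passed, a panel, up to 4 members of each of 29 lists, the leading age genes and the 10 leading genes of the Mbp-rich pair: 141 genes, of which 126 were tested. Genes used to fill a direction had set means apart. Ribosomal protein genes, predicted gene models and rows with no symbol were left out of those 10 per direction. A few of these genes, and a list that rests on 1 of them, are not reported here. All the others were carried through every alternative in which they were tested. Of 8 promoter motifs searched, all are given for S-phase and G2/M genes. They were also searched in 45 windows of astroglial genes. There, E2F was in 2, CHR in 4, CCAAT in 18 and TATAAA in 6. TTGGCA was in 4, the STAT motif in 6, the SOX motif in 1 and the NFI palindrome in 0. The shares over all windows are those given above. In data simulated for the stage difference at 7 months (4584 genes, 200 changed), a log2 difference of 4 was recovered past the adjusted threshold in 0% of genes and one of 8 in 2.8%, and estimates averaged 4.06 and 7.99. Without adjustment, 85.2% and 97.2% of such genes had p under 0.05 by the same limma test. The simulated noise was independent between genes, and recovery after adjustment depends on how many genes change. These rates may therefore not carry over to the data.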

Additional observations from a re-analysis of the deposited data

Results flagged for a closer look

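Among 47 values looked at in the 10 aNSC cells, 12 had a cell whose gap to the next was large for the group's range. For independent, normally distributed values, chance alone flags about 1 in 20. The values here are not independent, since Aldoc, Clu and Sparcl1 belong to the astroglial list. The 12 are therefore a description and were not tested against chance. Cell A1_3_S9 was highest for the astroglial list mean (6.71), the endothelial and mural list mean (0.0805), Aldoc (10.75), Clu (10.70) and Sparcl1 (10.74), and lowest for Hsp90ab1 (7.41), all as log2(TPM + 1). Cell A1_3_S7, of the Mbp-rich pair, was lowest for the proteasome (0.921) and glycolysis (0.905) list means and for H2afz (0.70). The other cell of the pair, A1_3_S13, was highest for the oligodendrocyte precursor list mean (1.504). Cell A1_3_S3 was highest for the erythroid list mean (2.94) and lowest for Ssb (4.25). All of these cells belong to title set A1_3.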

How the results depend on the processing

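The 7 calls at 7 months depended on most choices, while the differences of the 7 genes kept their sign in every alternative run that tested them. Malat1 was not tested in the run rescaled without its row. Counts of genes higher and lower were 6 and 22 with a pseudocount of 0.1, 0 and 0 without the filter (756 with an unadjusted p under 0.05), 24 and 36 with a filter at 3, 0 and 0 with the log2 of the mean TPM (560 unadjusted), 10 and 83 after quantile normalization, 4 and 18 after rescaling without mitochondrial, ribosomal RNA and Malat1 rows, 6 and 11 with the replicate block and genes detected as a covariate, 0 and 1 without the Mbp-rich pair, and 4 and 16 without the G2/M qNSC cell. Without the replicate block they were 1 and 3. Same-set deviations of the stages correlated at 0.161, 0.056 and 0.241, so the pairing of sets was not shown by every pair. Leaving out a title set gave 4 to 17 higher and 5 to 28 lower (45 calls without A1_1, 14 without A1_2). Leaving out a cell gave 0 to 21 higher and 0 to 42 lower; total calls were 0 without A1_1_S21, A1_1_S25, A1_3_S3, 1 without A1_1_S19, A1_1_S24, A1_2_S1, 3 without A1_1_S17, A1_1_S26, A1_2_S2, A1_2_S5, A1_2_S6, A1_2_S12, A1_2_S16, A1_3_S10, A1_3_S12, A1_3_S14, 4 without A1_3_S11, 11 without A1_3_S6, 16 without A1_2_S4, 20 without A1_1_S23, 22 without A1_3_S9, 23 without A1_3_S13, 63 without A1_3_S16. The median over all genes was -0.00401 without the filter, 1.18 with a filter at 3, 0.14 with the log2 of the mean, 0.097 after quantile normalization and 0.61 without the pair, and 0.25 to 0.63 with a cell or set left out. For the age comparison, no filter gave 1 gene lower than at 5 weeks and 2 higher than at 7 weeks, and the other alternatives, the added one without A1_1_S23 included, gave 0. Shares of cells were also counted at 10 TPM in place of 1 TPM, and 92 shares were marked as moved and 184 as the same. At 10 TPM, Dcx was detected in 3 of 10 aNSC and 4 of 19 qNSC cells, and gfp in 4 and 7. Aqp4 was detected in 0 and 12 cells, against 1 and 12 at 1 TPM. The detection counts given above thus hold for the cut of 1 TPM. The cause of these changes was not tested.

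Some genes and lists changed sign, none of them past the threshold; their differences before the change reached 2.16 (Fdps) among genes and 1.73 (Notch) among lists. With the setting pseudocount 0.1 the values were Dcx -0.320, Fos -0.658, gfp -0.220, Qk 0.155, Snap25 -0.0457, the lipid synthesis list -0.642. With the setting no filter the values were the G2M list -0.225, the lipid synthesis list -0.00314, the notch list -0.00465, the choroid plexus list 0.0115, the mature neuron list 0.00587, the erythroid list 0.00434. With the setting filter at a mean of 3 the values were the lipid synthesis list -1.424, the notch list -3.866, the oligodendrocyte list -0.934. With the setting log2 of the mean TPM the values were Dcx -0.542, Enpp2 -0.225, H2-D1 -1.078, Hba-a1 0.599, Nr2e1 -1.135, Smad4 -0.0308, the lipid synthesis list -1.406, the ER secretory list -0.108, the erythroid list 0.599. With the setting quantile normalization the values were Dcx -0.0209, Fos -0.157, gfp -0.0845, H2-D1 -0.105, Nr2e1 -0.263, the lipid synthesis list -0.173. With the setting rescaled without mitochondrial, ribosomal RNA and Malat1 rows the values were Dcx -0.062, Fos -0.185, gfp -0.155, the lipid synthesis list -0.144. With the setting replicate block and genes detected as a covariate the values were Apod -0.722, Cldn11 -0.00817, Dcx -0.426, Enpp2 -1.405, H2-D1 -0.0276, Serpinb1a -0.283, Sgk1 -0.431, Smad4 -0.155, Trf -0.504, the oligodendrocyte list -0.025. With the setting without the 2 Mbp cells the values were Hba-a1 0.412, Trf -0.966, the oligodendrocyte list -1.469, the erythroid list 0.412. With the setting without the G2/M qNSC cell the values were Fos -0.0724, gfp -0.0916.

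With a cell or title set left out, the ranges that crossed 0 were H2-D1 -0.221 to 1.319, Nr2e1 -1.250 to 1.992, Qk -1.148 to 0.848, the notch list -1.609 to 2.563, Fdps -0.0599 to 4.581, Fos -0.678 to 0.713, gfp -0.679 to 1.036, H2-K1 -2.092 to 1.316, Hba-a1 -0.842 to 0.258, Ifi27 -1.950 to 0.839, the lipid synthesis list -0.688 to 0.362, the interferon list -1.286 to 1.262, the choroid plexus list -0.680 to 0.722, the mature neuron list -0.817 to 0.0611, the erythroid list -0.842 to 0.258, Dcx -0.916 to 0.882, Snap25 -0.244 to 0.576, Trf -0.994 to 2.324, Vim -0.326 to 1.088, the neuroblast list -0.330 to 1.391, the glycolysis list -1.314 to 0.0246, the oligodendrocyte list -1.605 to 2.298.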
